A study of Mus musculus with 6 samples.

Results

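The 9 genes described here, Ccl2, Ccl3, Ccl4, Ccl5, Ccl6, Ccl9, Cxcl2, Cxcl10 and Cxcl16, encode chemokines that cells of the myeloid lineages make, and were taken by gene symbol from a table of 24410 genes. All 9 were in the table and all 9 passed the filter on low values, at least 1 FPKM in at least 3 libraries. FPKM are fragment numbers scaled to transcript length and library size, so levels of different genes can be set side by side. The libraries came from CD41+ cells grown from lineage-depleted bone marrow of mice of the C57BL/6 strain, 5 months old, with 3 wild-type libraries (WT 1 to WT 3) and 3 Txnip -/- libraries (KO 1 to KO 3). Both genotypes were grown for 3 days with 100 ng/mL stem cell factor and 20 ng/mL thrombopoietin, in medium with serum, before the CD41+ cells were sorted. The title of the study asks about Txnip, the thioredoxin-interacting protein, in megakaryocytes, which shed platelets, and in platelet formation. The labels name neither the deleted part of Txnip nor whether libraries of a genotype came from separate mice. The p-values thus measure only the spread between these libraries, part of which may be technical. By a Y-linked gene given below, WT 3 and KO 3 differed in sex from the other libraries, so that spread also holds a difference between mice.

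Chemokines are small secreted proteins that guide leukocytes by binding receptors coupled to G proteins, and they also bind sulfated sugar chains on cells and matrix. CC chemokines have their first pair of conserved cysteines side by side, and in CXC chemokines a residue separates them. In myeloid cells many of them are induced at the level of transcription, by NF-kB and AP-1 after inflammatory stimuli and by interferon-activated factors. In marrow they act on the release, retention and cycling of blood cells, and megakaryocytes store others, above all Pf4 and Ppbp, in their granules. Ccl2 attracts monocytes through Ccr2, Ccl3 and Ccl5 act through Ccr1 among others, and Ccl4 attracts macrophages and T cells. Ccl6 and Ccl9 are rodent chemokines that signal through Ccr1, Cxcl2 attracts neutrophils through Cxcr2, and Cxcl10 is an interferon-induced ligand of Cxcr3. Cxcl16 is anchored in the membrane, takes up oxidised lipid and binds Cxcr6.

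The libraries matched their genotype labels: Txnip measured 112, 228 and 143 FPKM across WT 1 to 3, was at 0.04 in KO 2 and listed at 0 in KO 1 and KO 3. The sorted cells held Itga2b, which encodes CD41, at 83.2 to 152 FPKM, and 0 of the 16 megakaryocyte markers were at 0 in every library. The same held for the 16 neutrophil, 14 mast cell and basophil and 6 eosinophil markers, so this count does not tell cell types apart. Depth is not stated and was estimated, from the steps between low values, at 14400000 to 25700000 fragments in 4 libraries, and it was not resolved in WT 3 and KO 2. FPKM sums lay between 715205 (KO 3) and 1131640 (WT 2), and the noncoding RNAs Rpph1 and Rmrp took 30.4% of the WT 2 sum and 10.7% to 20.6% of the others. Libraries of the same number in WT and KO deviated from their group means together, with correlations across genes of 0.81, 0.59 and 0.38 for numbers 1, 2 and 3, and they are called pairs below. Ddx3y, a Y-linked gene, was listed at 0 in WT 3 and KO 3 and lay between 22.8 and 41.7 FPKM in the other 4 libraries, so pair 3 also differed from pairs 1 and 2 in sex.

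The sequence before the start is shown for 3 chemokines with a wide range between libraries, Cxcl10, Cxcl2 and Ccl3, and for Ccl9, which had the narrowest. RefSeq promoters on GRCm38.p6 were found for 5 of the 9 genes, namely Ccl3, Ccl6, Ccl9, Cxcl2 and Cxcl10. Each sequence below is the 250 bases before the annotated start, 5′ to 3′ on the gene's strand, with matches to any of 4 motifs in capitals. The motifs were GGGNANTTCC (NF-kB type), GAAANNGAAA (interferon response element type) and TGANTCA (AP-1 type) on both strands, and TATAAA on the gene's strand; their letters were set after these promoters had been read. Ccl3 lies on the minus strand at chr11:83649379-83649628, Ccl9 on the minus strand at chr11:83578637-83578886, Cxcl2 on the plus strand at chr5:90903649-90903898 and Cxcl10 on the minus strand at chr5:92348890-92349139.
Cxcl10: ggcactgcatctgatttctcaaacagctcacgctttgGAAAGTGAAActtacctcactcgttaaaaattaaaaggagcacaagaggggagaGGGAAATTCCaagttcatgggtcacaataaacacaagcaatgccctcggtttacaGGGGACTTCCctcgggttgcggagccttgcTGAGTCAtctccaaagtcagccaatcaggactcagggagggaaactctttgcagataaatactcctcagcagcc
Cxcl2: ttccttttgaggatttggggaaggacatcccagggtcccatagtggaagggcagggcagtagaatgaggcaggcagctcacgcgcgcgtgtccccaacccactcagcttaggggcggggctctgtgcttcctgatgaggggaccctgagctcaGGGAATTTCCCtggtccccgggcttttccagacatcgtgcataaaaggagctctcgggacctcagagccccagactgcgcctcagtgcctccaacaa
Ccl3: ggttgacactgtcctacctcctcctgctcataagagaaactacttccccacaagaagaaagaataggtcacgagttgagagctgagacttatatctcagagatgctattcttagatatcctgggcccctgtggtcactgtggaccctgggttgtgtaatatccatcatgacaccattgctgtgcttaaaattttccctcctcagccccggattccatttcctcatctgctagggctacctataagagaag
Ccl9: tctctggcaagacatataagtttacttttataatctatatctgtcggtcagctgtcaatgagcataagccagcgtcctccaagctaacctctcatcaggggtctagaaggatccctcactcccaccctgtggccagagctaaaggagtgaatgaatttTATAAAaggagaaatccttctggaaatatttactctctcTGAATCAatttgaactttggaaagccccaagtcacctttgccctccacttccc
Cxcl10 held 4 matches. GAAAGTGAAA lay 213 to 204 bases before the start, GGGAAATTCC 159 to 150, GGGGACTTCC 104 to 95 and TGAGTCA 74 to 68. In Cxcl2 the run GGGAATTTCC, 97 to 88 bases before the start, overlapped GGAATTTCCC, its match on the opposite strand, by all but 1 base. Ccl9 held TATAAA 92 to 87 bases before the start and TGAATCA, with A at the open base N, 53 to 47 before it. Ccl3 and Ccl6 held none of the 4. Among 32817 promoter windows of the same length, several of which can belong to 1 gene, 1.04% held the NF-kB type, 2.97% the interferon type, 6.75% the AP-1 type and 7.60% TATAAA. A match describes letters in a window, not binding.

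Ccl9 was the most abundant of the 9 genes and Ccl5 the least. Mean levels over the 6 libraries were 104 FPKM for Ccl9, 46.0 for Ccl3, 36.3 for Ccl6, 15.2 for Cxcl2, 15.1 for Ccl4, 7.52 for Ccl2, 4.32 for Cxcl16, 3.67 for Cxcl10 and 2.26 for Ccl5. Ccl9 lay above Ccl3 and Ccl6 above Cxcl2 in 6 of 6 libraries. Each gene's range over the libraries overlapped that of the next gene in this order, and Ccl3 exceeded Ccl6, Cxcl2 exceeded Ccl4, Ccl4 exceeded Ccl2 and Cxcl16 exceeded Cxcl10 in only 4 of 6, so the order of those neighbours was not fixed. The spread differed as well: the highest library exceeded the lowest by 1.65 times for Ccl9 and 2.21 times for Ccl6, but by 15.1 times for Cxcl10 and 21.2 times for Ccl5.

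**Figure D1:**
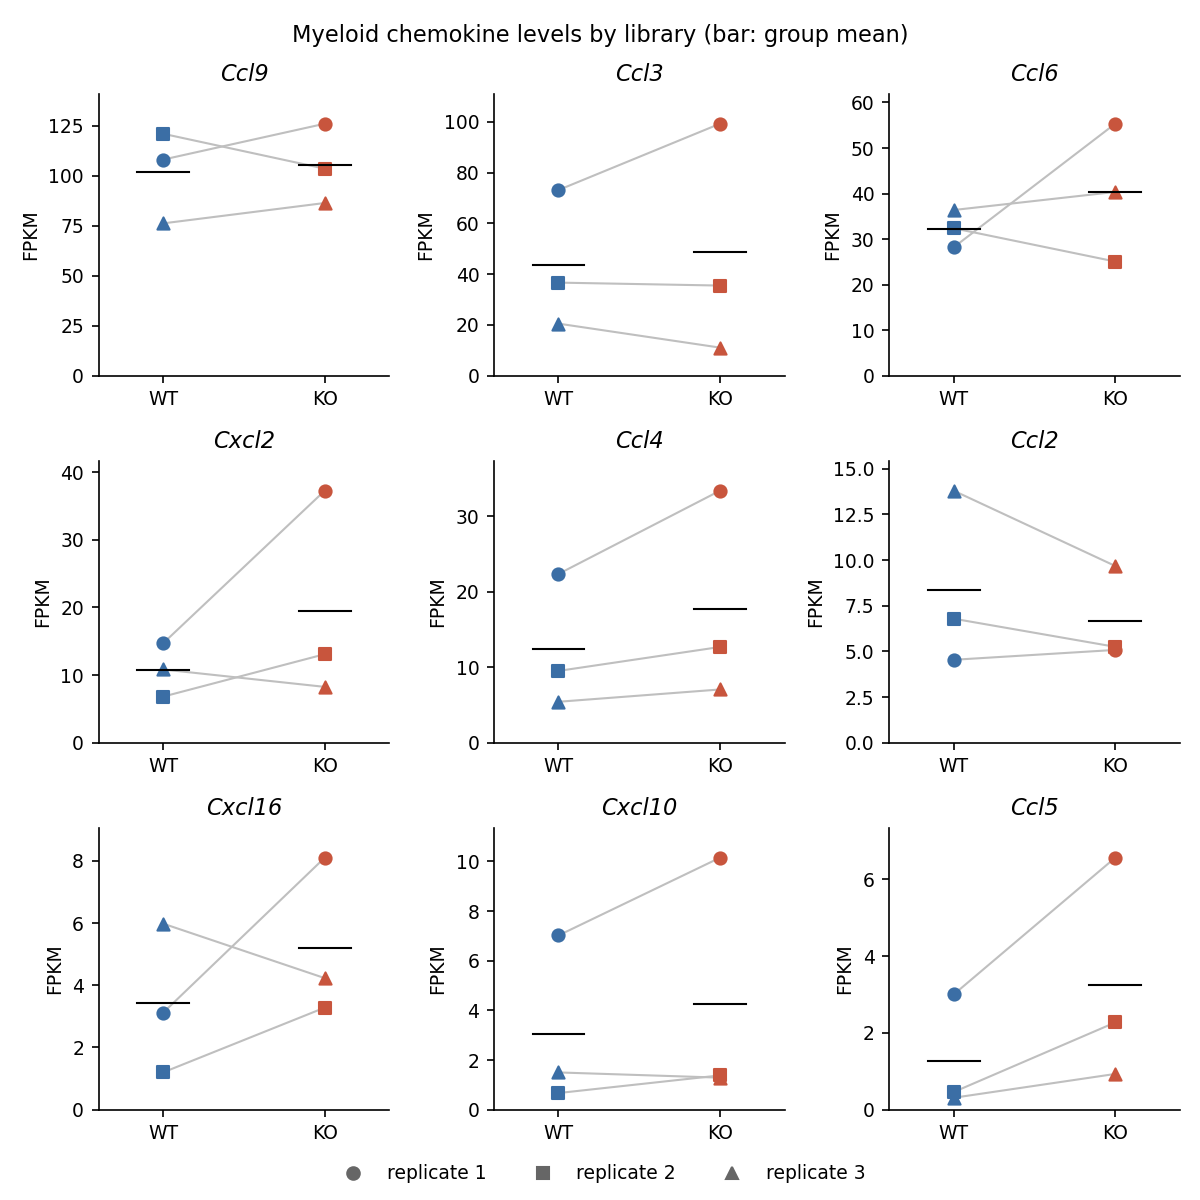
FPKM (y axis, from 0, scaled per gene) of the 9 chemokines in WT and KO libraries (x axis). Symbols mark the replicate number, grey lines join libraries of the same number and bars are group means; KO 1 is the highest library in every panel but that of Ccl2, and the groups overlap in every panel.

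No chemokine of the 9 passed the test between genotypes. The test was limma on log2(FPKM + 1), two-sided, over 11249 genes with Benjamini-Hochberg adjustment, and it called 0 of the 9 at an adjusted p under 0.05, against 0.0178% of all genes tested (2 genes). With the replicate number as a block it again called 0 of the 9, against 0.0267% of all genes (3 genes). At an unadjusted p under 0.05 the counts were 0 of 9 (0.676% of all genes) and, with the block, 3 of 9 (6.93% of all genes), namely Ccl4, Ccl5 and Cxcl2. In 0 of the 9 did the WT and KO libraries lie apart, which they did in 4.35% of all genes. Fitted differences, KO minus WT, were above 0 for 7 of 9 (63.4% of all genes), or for 8 with libraries rescaled to a common FPKM sum and 6 with median ratio scaling, but for 2 of the 8 that passed the filter without KO 1. They had a median of 0.29 on the log2(FPKM + 1) scale beside 0.06 over all genes. The intervals below are 95% intervals of those fits, and a difference on this scale understates the change of genes near 1 FPKM.

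Ccl2, the monocyte attractant, had its highest values in replicate 3 of both genotypes. It measured 4.54, 6.79 and 13.8 FPKM across WT 1 to 3 and 5.08, 5.25 and 9.68 across KO 1 to 3. WT 3 and KO 3 were the high libraries and the groups overlapped. The fitted difference was -0.22 (SE 0.40, limma, adjusted p = 1.00), with an interval from -1.12 to 0.68, and the KO library was higher in 1 of 3 pairs. Its neighbour on chromosome 11, Ccl7, another monocyte attractant, also stood highest in replicate 3, at 6.33 FPKM in WT 3 and 3.48 in KO 3 against 0.08 to 1.18 in the other 4.

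Ccl3 and Ccl4, paired inflammatory chemokines of macrophages, had high values in replicate 1 of both genotypes. Ccl3 measured 73.2, 36.7 and 20.5 FPKM across WT 1 to 3 and 99.3, 35.5 and 11.1 across KO 1 to 3. Ccl4 measured 22.4, 9.51 and 5.42 FPKM across the WT and 33.4, 12.7 and 7.05 across the KO libraries. In both genes replicate 1 was highest and replicate 3 lowest in each genotype, and the groups overlapped. The fitted difference of Ccl3 was -0.15 (SE 0.72, interval -1.78 to 1.48), with KO higher in 1 of 3 pairs. That of Ccl4 was 0.42 (SE 0.59, interval -0.92 to 1.76; limma, adjusted p = 1.00, and 0.683 with the block), with KO higher in 3 of 3 pairs. Higher values in 3 of 3 pairs were found in 2 of the 9 genes, Ccl4 and Ccl5, and in 20.4% of all genes. With the block the SE of Ccl4 fell to 0.15 and its interval ran from 0.10 to 0.75. The ratio of Ccl3 to Ccl4 FPKM lay between 2.80 and 3.86 in 5 libraries and was 1.57 in KO 3. These genes adjoin on chromosome 11, next to Ccl6, and 0 of their 31-base transcript words are shared with another gene in GENCODE.

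Ccl5, which attracts T cells, monocytes and eosinophils, was the least abundant of the 9 and had a larger fitted difference than the other 8 with all libraries kept. It measured 3.00, 0.46 and 0.31 FPKM across WT 1 to 3 and 6.56, 2.27 and 0.93 across KO 1 to 3. Replicate 1 was the highest in each genotype, and WT 1 lay above KO 2 and KO 3, so the groups overlapped. The KO library was 2.19, 4.93 and 3.00 times the WT library in pairs 1, 2 and 3. The fitted difference was 0.88 (SE 0.57, interval -0.42 to 2.18; limma, adjusted p = 1.00). It was 1.50 with a pseudocount of 0.1, and without WT 3 it was 0.59, under that of Cxcl16 (0.97) and Cxcl2 (0.62). With the block the SE was 0.22 and the interval 0.38 to 1.38 (limma, unadjusted p = 0.00263, adjusted p = 0.529). These values rest on few reads: at the estimated depths and the longest annotated transcript, WT 1 and WT 2 hold about 28 and 4 fragments of Ccl5, and KO 1 and KO 3 about 44 and 11.

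Ccl6 and Ccl9, constitutive chemokines of myeloid cells, varied least. Ccl9 measured 108, 121 and 76.2 FPKM across WT 1 to 3 and 126, 104 and 86.3 across KO 1 to 3. Ccl6 measured 28.2, 32.4 and 36.4 FPKM across the WT and 55.3, 25.1 and 40.4 across the KO libraries. KO 1 held the highest value of both genes and KO 2 the lowest of Ccl6, and the groups overlapped. The fitted difference of Ccl9 was 0.06 (SE 0.25, interval -0.50 to 0.62) and that of Ccl6 0.25 (SE 0.29, interval -0.42 to 0.91), and neither passed (limma, adjusted p = 1.00). The Ccl9 interval with the block, -0.28 to 0.40, was the narrowest of the 9 apart from that of Ccl4. Ccl5, Ccl9, Ccl6, Ccl3 and Ccl4 lie in that order along chromosome 11 in RefSeq. Of the neighbours of this cluster, Wfdc17, which encodes a small secreted protein, was at 22.5 to 42.8 FPKM in WT and 24.2 to 38.2 in KO, while Heatr9 stayed between 0 and 0.29 FPKM.

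Cxcl2, the neutrophil attractant, measured 14.7, 6.81 and 10.8 FPKM across WT 1 to 3 and 37.3, 13.1 and 8.25 across KO 1 to 3. KO 1 stood above the other libraries and KO 3 lay within the WT range. KO was 2.53 and 1.92 times WT in pairs 1 and 2 and 0.762 times in pair 3. The fitted difference was 0.59 (SE 0.50, interval -0.54 to 1.73; limma, adjusted p = 1.00), and 0.717 was the adjusted p with the block. Its paralogs Cxcl1 and Cxcl3 stayed at or under 1.74 and 1.26 FPKM, and 7.59% of the 31-base words of Cxcl2 transcripts occur in another gene, Cxcl3, so the share of reads between these genes is an estimate.

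Cxcl10, the interferon-induced chemokine, measured 7.02, 0.67 and 1.50 FPKM across WT 1 to 3 and 10.2, 1.38 and 1.29 across KO 1 to 3. Replicate 1 stood apart from replicates 2 and 3 in both genotypes, and the groups overlapped. The fitted difference was 0.29 (SE 0.73, interval -1.36 to 1.94; limma, adjusted p = 1.00), with KO higher in 2 of 3 pairs. The other interferon-induced ligands of Cxcr3 were close to 0: Cxcl9 was at most 0.37 FPKM and Cxcl11, which adjoins Cxcl10 on chromosome 5, at most 0.22.

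Cxcl16, the membrane-anchored chemokine, measured 3.12, 1.2 and 5.98 FPKM across WT 1 to 3 and 8.10, 3.28 and 4.23 across KO 1 to 3. KO 1 was highest and WT 2 lowest, and the groups overlapped. KO was 2.60 and 2.73 times WT in pairs 1 and 2 and 0.707 times in pair 3. The fitted difference was 0.56 (SE 0.45, interval -0.47 to 1.59; limma, adjusted p = 1.00, and 0.756 with the block). Its neighbour Zmynd15 stayed between 0.04 and 0.65 FPKM.

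**Figure D2:**
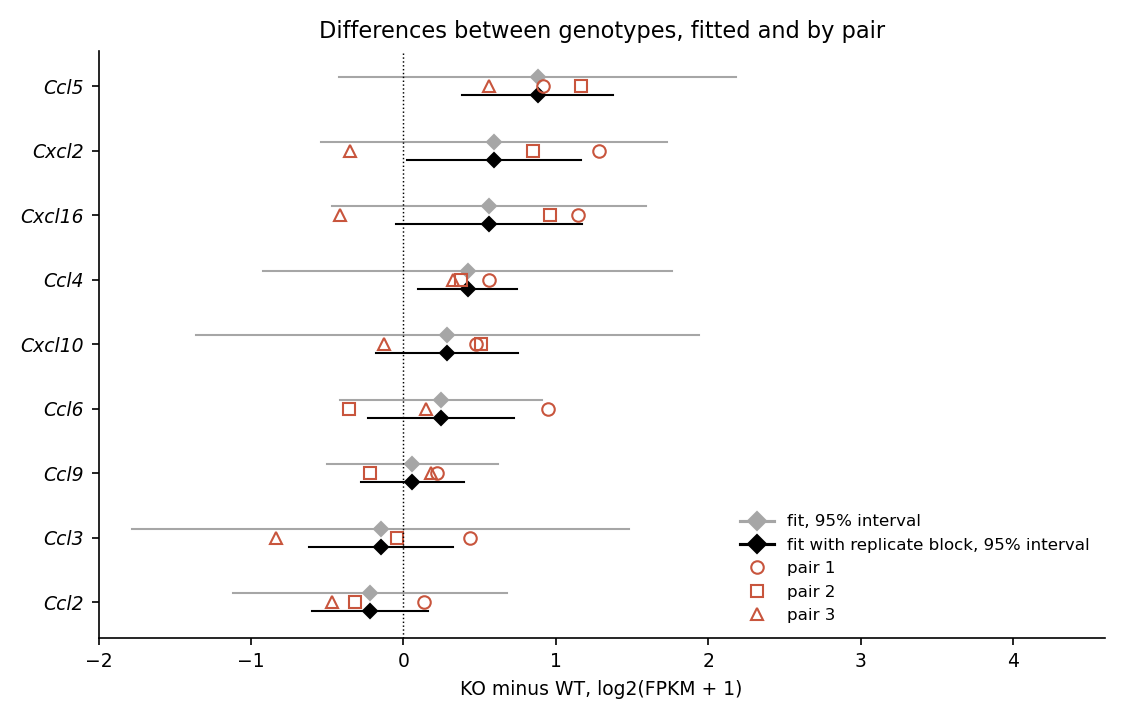
KO minus WT on the log2(FPKM + 1) scale (x axis) for each chemokine (y axis). Grey and black diamonds with bars are limma estimates and 95% intervals without and with the replicate block, and open symbols are the 3 pairs; without the block all 9 intervals span 0, and with it those of Ccl4, Ccl5 and Cxcl2 lie above 0.

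The 3 pairs did not give the same directions. In pair 1 the KO library was higher for 9 of 9 chemokines (55.3% of all genes), in pair 2 for 5 of 9 (58.8%) and in pair 3 for 4 of 9 (57.8%), and the median differences of the 9 were 0.56, 0.38 and -0.13 beside 0.04, 0.09 and 0.05 over all genes. Cxcl2, Cxcl10 and Cxcl16 were higher in KO in pairs 1 and 2 and lower in pair 3. Whether the genotype difference itself depended on the pair was not tested. Sex, the pair and any day or mouse that a number stands for cannot be told apart. With the block and without pair 3, limma called 3 of the 9, Cxcl2 (1.07, adjusted p = 0.000469), Cxcl16 (1.05, adjusted p = 0.0132) and Ccl5 (1.04, adjusted p = 0.0342), against 1.0% of 10886 genes. Without pair 1 or pair 2 it called 0 of the 8 that then passed the filter, against 0.213% and 1.17% of genes. With 2 pairs left, limma has little spread per gene to measure and leans on that shared over all genes. The Ccl5 value of WT 2 in the fit without pair 3 rests on about 4 fragments. Over the 6 single libraries left out in turn, without the block, it called 0 of the members tested each time.

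More of the variation of these genes went with the replicate number than with the genotype. The number took 93.0% to 96.0% of the sum of squares of log2(FPKM + 1) for Ccl3, Ccl4 and Cxcl10, 88.9% for Ccl2 and 83.3% for Ccl9. It took 73.4% for Ccl5, 61.7% for Cxcl2, 52.0% for Cxcl16 and 32.9% for Ccl6, where 55.5% went with neither number nor genotype. Number has more levels than genotype, so on average it takes a larger share even where neither has an effect. Genotype took at most 24.7%, in Ccl5, and 0.522% in Ccl3. The medians over the 9 were 83.3% for number and 6.22% for genotype, beside 73.5% and 5.57% over all genes tested. By root mean square difference of centred log2 values, Ccl4 and Ccl5 were nearest to each other (0.28), as were Ccl6 and Ccl9 (0.42), and Ccl2 and Ccl3 lay farthest apart (1.46).

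**Figure D3:**
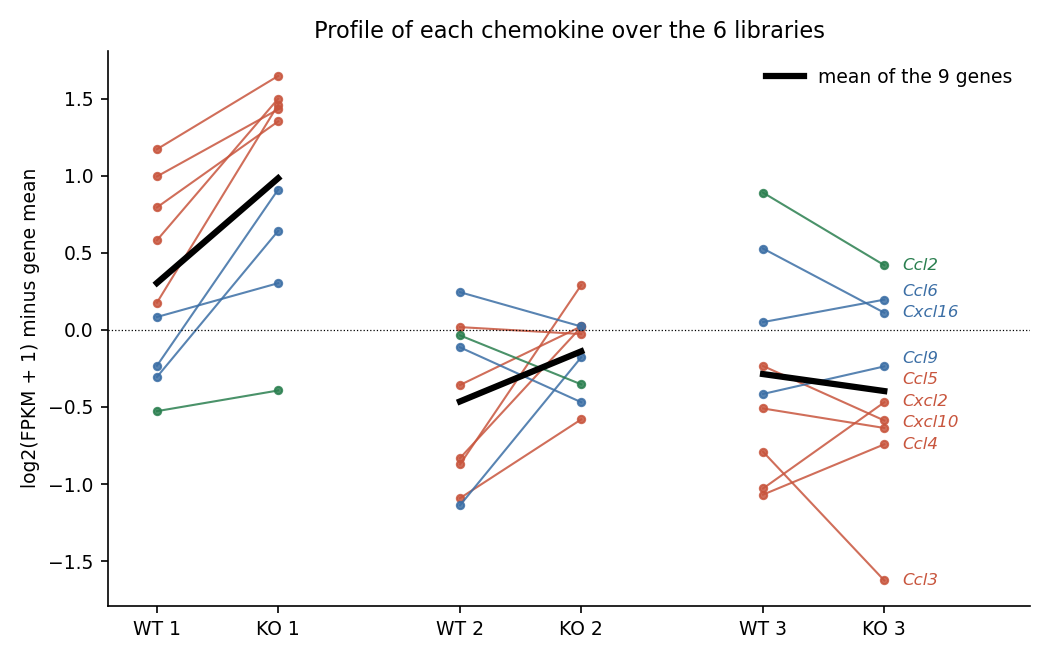
log2(FPKM + 1) minus the gene's mean over 6 libraries (y axis) in each library (x axis, by pair), with lines joining the libraries of a pair. Red marks Ccl3, Ccl4, Ccl5, Cxcl2 and Cxcl10, blue Ccl6, Ccl9 and Cxcl16, green Ccl2 and black the mean of the 9 (colours set after the values were seen); the mean stands at 0.98 in KO 1 and 0.30 in WT 1 and below 0 in the other 4 libraries, while Ccl2 is highest in replicate 3.

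The make-up of the chemokine message differed between libraries. The 9 genes summed to 264, 215 and 171 FPKM in WT 1 to WT 3 and to 381, 202 and 169 in KO 1 to KO 3, that is between 0.0190% (WT 2) and 0.0531% (KO 1) of the library's FPKM sum. Ccl9 made up 33.1% (KO 1) to 56.1% (WT 2) of the sum. Ccl3 made up 27.7% and 26.1% in WT 1 and KO 1 and 12.0% and 6.54% in WT 3 and KO 3. Ccl6 took 21.3% and 23.9% in WT 3 and KO 3 against 10.7% and 14.5% in WT 1 and KO 1, and Ccl2 took 8.08% and 5.72% against 1.72% and 1.33%. Other shares did not move alike in both genotypes: Cxcl2 made up 5.57% in WT 1 and 6.33% in WT 3 but 9.77% in KO 1 and 4.88% in KO 3, and Ccl6 made up 15.0% in WT 2 and 12.4% in KO 2.

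**Figure D4:**
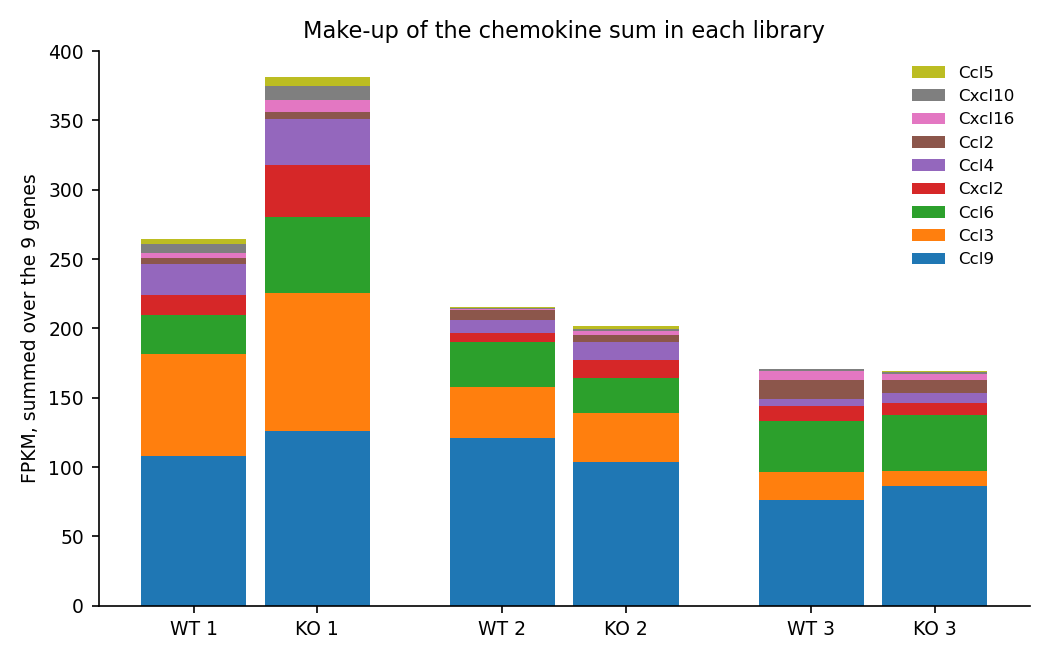
FPKM of the 9 chemokines stacked from 0 (y axis) in each library (x axis, by pair). The sum is highest in KO 1 (381) and WT 1 (264), and the share of Ccl3 is larger in replicate 1 than in replicates 2 and 3 of both genotypes.

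Of the other chemokine ligands, 7 of the 32 in the table passed the filter and 11 were listed at 0 in every library. Limma called 0 with or without the block (0 and 1 at an unadjusted p under 0.05, against 0.676% and 6.93% of all genes). Their median difference was -0.04, and 0.08 with libraries rescaled to a common FPKM sum. Pf4, the platelet chemokine of megakaryocytes, measured 465, 1435 and 1129 FPKM across WT 1 to 3 and 476, 1545 and 772 across KO 1 to 3. Ppbp, the precursor of another platelet chemokine, was at 24.7, 151 and 66.9 FPKM in WT and 33.6, 101 and 68.8 in KO. Both were lowest in replicate 1, where Ccl3, Ccl4, Ccl5, Cxcl2 and Cxcl10 were highest. Ccl17, a dendritic cell chemokine that attracts T cells through Ccr4, was lower in KO in 3 of 3 pairs, at 1.90, 8.83 and 7.11 FPKM in WT and 1.30, 7.16 and 2.46 in KO, a difference of -0.61 (SE 0.57; limma, adjusted p = 1.00, and 0.683 with the block). The share of all genes lower in 3 of 3 pairs was not counted.

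Transcripts of several receptors of these ligands were in the same libraries, which do not tell apart the cells they came from. Limma called 0 of the 9 receptors tested of 25 listed in the table. At an unadjusted p under 0.05 it called 0, and 1 with the block, against 0.676% and 6.93% of all genes. Ccr2, the receptor of Ccl2, was at 94.9 to 203 FPKM in WT and 105 to 156 in KO. Ccr1, shared by Ccl3, Ccl5, Ccl6 and Ccl9, was at 24.8 to 46.0 in WT and 24.5 to 30.1 in KO. The lymphoid homing receptor Ccr7 measured 5.53, 3.67 and 1.32 FPKM across the WT and 9.04, 4.07 and 2.52 across the KO libraries, higher in 3 of 3 pairs (0.45, SE 0.48; limma, adjusted p = 1.00, and 0.696 with the block). Of all genes 20.4% were higher in 3 of 3 pairs. Receptors of the CXC members were lower, with Cxcr2 at 1.78 to 6.09, Cxcr6 at 1.05 to 3.17 and Cxcr3 at 0 to 0.59 FPKM over all libraries. Ccr2, Cxcr2, Cxcr3 and Cxcr6 were named as the members' receptors after their values were seen.

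**Figure D5:**
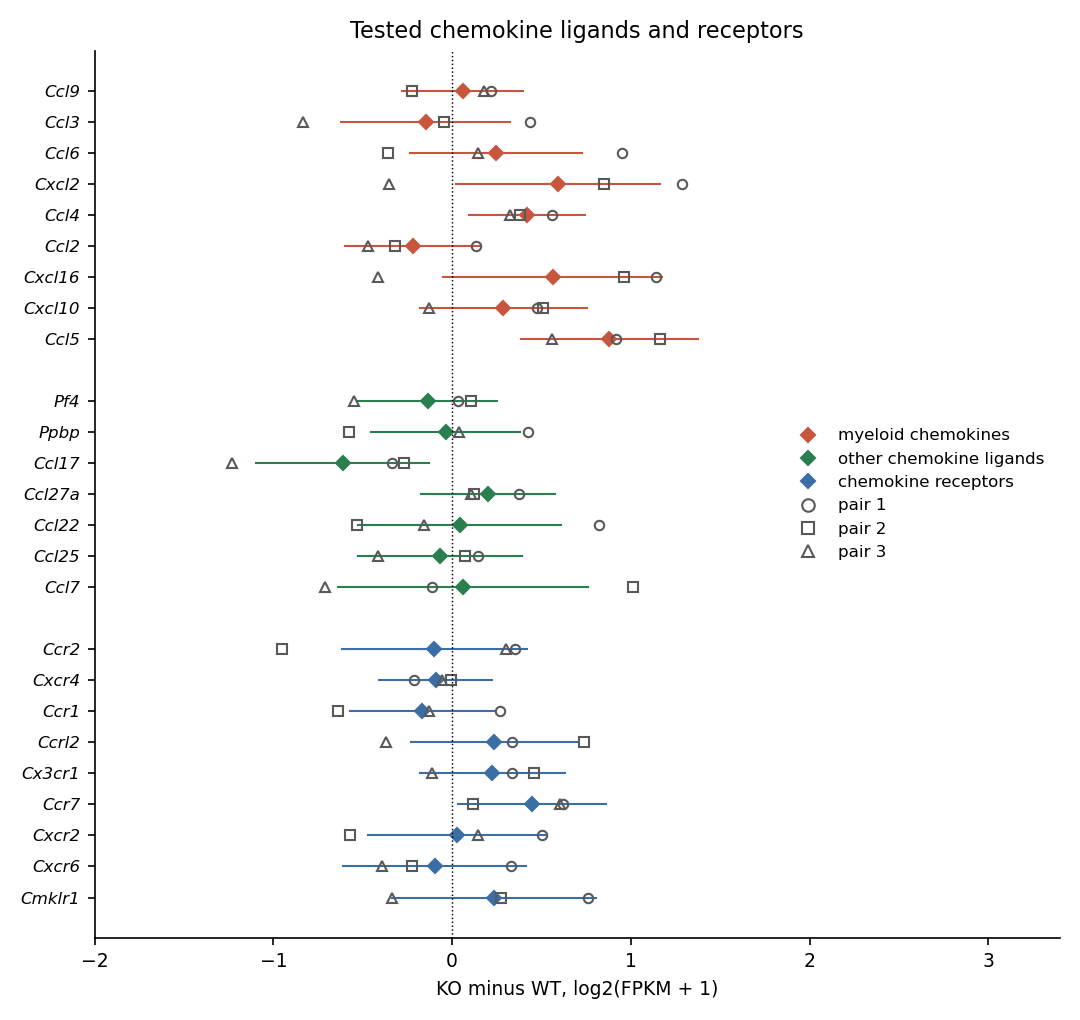
KO minus WT on the log2(FPKM + 1) scale (x axis) of the tested chemokine ligands and receptors (y axis, by mean level within each group). Diamonds and bars are limma estimates and 95% intervals with the replicate block and open symbols are the 3 pairs; Ccl4, Ccl5, Cxcl2 and Ccr7 have intervals above 0 and Ccl17 below 0, and 0 of the 25 genes passed after adjustment over all genes.

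Genes that act on chemokine transcription were read from a list of 26 transcription factors and regulators of NF-kB, among them the inhibitors Nfkbia, Nfkbib, Nfkbie and Tnfaip3. All 26 had differences above 0 (63.4% of all genes), or 23 with median ratio scaling and 25 with quantile normalization, but 10 of the 26 without KO 1. The differences had a median of 0.28 and pair medians of 0.54, 0.46 and -0.11. Limma called 0 of them (2 at an unadjusted p under 0.05, against 0.676% of all genes, and 9 with the block, against 6.93%). Irf7, the interferon regulatory factor induced by interferon, measured 3.69, 2.86 and 3.71 FPKM across WT and 8.24, 4.94 and 7.31 across KO libraries. Its difference was 0.81 (SE 0.26) and did not pass (limma, adjusted p = 1.00, and 0.438 with the block). The WT and KO values of Irf7 did not overlap, which was so in 4.35% of all genes. Those of Cebpd, also on the list, did not overlap either (difference 0.31, SE 0.20, limma with the block, adjusted p = 0.744). Cebpb, a factor of myeloid inflammatory genes, measured 17.5, 15.8 and 23.7 FPKM across the WT and 29.5, 46.8 and 23.0 across the KO libraries. Irf5, which acts downstream of Toll-like receptors, measured 14.7, 13.9 and 20.8 across the WT and 28.9, 26.0 and 18.7 across the KO libraries. Of 24 inducing cytokines and receptors of microbial signals, 16 had differences above 0 (63.4% of all genes) and 8 below, with a median of 0.15. Without KO 1 the counts were 10 and 14. Limma called 0 of the 24 (0 at an unadjusted p under 0.05, and 1 with the block, against 6.93% of all genes). Among them Tnfrsf1a, a receptor of tumour necrosis factor, was at 18.5 to 31.4 FPKM in WT and 26.4 to 33.5 in KO, while Il6, an inflammatory cytokine, was at 7.84 to 12.6 and 3.74 to 14.5.

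KO 1 held the highest value of 20 of the 32 tested markers of monocytes, macrophages and dendritic cells, and the other 5 libraries that of 12. The share of all tested genes that were highest in KO 1 was not counted, so the 20 cannot be set against it. In 28 of the 32 the difference was above 0 (63.4% of all genes; median 0.27), but in 18 without KO 1, with pair medians of 0.86, 0.22 and -0.01, and limma called 0 (1 at an unadjusted p under 0.05, against 0.676% of all genes, and 11 with the block, against 6.93%). Their summed level lay between 1453 and 1867 FPKM in WT, was 2699 in KO 1 and lay at 1529 and 1798 in KO 2 and KO 3, and 0 of the 33 markers in the table were at 0 in every library. The antigen presentation genes Cd74, H2-Aa, H2-Ab1 and H2-Eb1, set apart after their values were seen, summed to 1239 FPKM in KO 1 and 306 to 483 in the other 5 libraries. The other 29 markers summed to 1459 FPKM in KO 1, 1466 in KO 3, 1453 in WT 3 and 1002 to 1148 in the other 3. Immediate early genes, the first transcripts to appear after a stimulus, were above 0 in 17 of 18 tested (63.4% of all genes). The count was 15 with median ratio scaling and 6 without KO 1. Their pair medians were 0.59, 0.04 and 0.01, and they summed to 1003 FPKM in KO 1, 644 in WT 1 and 368 to 464 in the other 4 libraries. Of the 18, limma called 0 (1 at an unadjusted p under 0.05, against 0.676% of all genes, and 4 with the block, against 6.93%). Neutrophil markers were below 0 in 11 of 15, where 63.4% of all genes were above 0. The count was 6 with a common FPKM sum, 15 with median ratio scaling, 11 with quantile normalization and 7 without KO 1. The neutrophil markers summed to 6216 to 7885 FPKM in WT and 4122 to 9406 in KO. Of the 15, limma called 0 (0 at an unadjusted p under 0.05, and 2 with the block, against 6.93% of all genes). The part of these markers in the chemokine values was not tested, and in bulk RNA more cells of a type and more RNA per cell cannot be told apart. Without KO 1 the median difference of the chemokines was -0.077 over the 8 that passed the filter, and without KO 3 it was 0.65.

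The genes whose profile over the 6 libraries lay nearest to the mean profile of the 9 were Avpr2, a vasopressin receptor (root mean square difference 0.096 on the log2 scale), Fnbp4 (0.097), the chromatin regulator Ankrd11 (0.098), 9930111J21Rik1 (0.1005) and Bcl3, a nuclear cofactor of NF-kB subunits (0.101). Bcl3 measured 3.14, 0.98 and 1.24 FPKM across WT 1 to 3 and 4.72, 1.57 and 1.15 across KO 1 to 3. In each of these 5 genes KO 1 was the highest library and WT 1 the next, which follows from choosing them to match the mean profile. The members, which were not chosen by that distance, lay farther from their own mean, from 0.27 for Cxcl2 to 0.90 for Ccl2.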

How the data were processed

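RNA was sequenced from 6 samples, 3 WT and 3 KO, grouped by their titles. The deposited FPKM values, 1 column per sample, were made by the authors with FastQC, Trimmomatic 0.39, STAR 2.7.0a and RSEM 1.2.31 on mm9, per the submitters' processing notes; their settings and the annotation are unstated there. Reads of similar transcripts are shared out by estimation in RSEM.

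From these values log2(FPKM + 1) was computed and tested with limma 3.58.1 in R 4.3.3 (eBayes with a trend, Benjamini-Hochberg over all 11249 genes reaching 1 FPKM in 3 or more libraries, threshold 0.05), and again with the replicate number as a block. The numbers were taken to pair the samples because each same-number correlation of deviations from group means, 0.81, 0.59 and 0.38, was above 0.1. Different-number correlations ran from -0.68 (WT 1 with KO 2) to 0.1003 (WT 3 with KO 2), so the mark of 0.1 alone does not set same numbers apart. Deviations within a genotype sum to 0, so these correlations are not independent of each other. On 10 simulated data sets without pairs, the fit without the block recovered 20.6% of genes changed by 1 log2 unit. It recovered 75.8% of those changed by 2 and 91.4% of those changed by 3. The fit with the block was not checked this way. The largest fitted difference of the 9 members was 0.88, so the lack of calls among them does not show equal levels. The 9 members and all lists were chosen with earlier results of these data known. Named genes are the members, Txnip, up to 4 genes of smallest p per list, the 5 nearest profiles, Pf4, Ppbp and chromosomal neighbours, and not all were printed; 1 result is not reported here. Depth was estimated with GENCODE lengths on GRCm38, so fragment numbers are approximate, and no interval was made from them. Alternatives changed pseudocount, filter, scaling, moderation, block and libraries. Figures used matplotlib 3.10.9.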

Additional observations from a re-analysis of the deposited data

How the results depend on the processing

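Of the 9 chemokines 0 passed under any alternative that kept all libraries, among them pseudocounts of 0.1 and 0.5, other filters, scalings and moderation. Over all genes, 2 were called, against 1 with no filter, 1 with a mean of at least 5 FPKM and 3 with the replicate block. With a library left out the calls ranged from 0 to 2 without the block. With the block and a pair left out they were 23, 128 and 109 without pairs 1, 2 and 3, of which 0, 0 and 3 were members. In the last of these Cxcl2 (1.07), Cxcl16 (1.05) and Ccl5 (1.04) passed. With all libraries kept, the block changed no member's call. No fit left out pair 3 without the block, so the part of the block in those calls was not tested. The median difference of the members, 0.29, was -0.077 without KO 1 and 0.65 without KO 3, the lowest and highest with a library left out, and 0.42 with libraries rescaled to a common sum, which moved the median of all genes to 0.22. Signs of small differences were not stable. Ccl3 turned to 0.023 with a common sum and Ccl9 to -0.028 with median ratio scaling. With a library left out, Ccl2 ranged from -0.54 to 0.17, Ccl3 from -0.90 to 0.63, Ccl4 from -0.15 to 0.92, Ccl6 from -0.014 to 0.54, Ccl9 from -0.13 to 0.20 and Cxcl10 from -0.47 to 0.94. Cxcl16 (0.13 to 0.97) and Cxcl2 (0.012 to 1.04) stayed above 0, as did Ccl5 (0.59 to 1.34) in the fits that tested it. With the block, Ccl6 turned to -0.11 and Ccl9 to -0.022 without pair 1, and Ccl3 to 0.20 and Ccl9 to -0.0016 without pair 3. Ccl5 fell under the filter without WT 1, KO 1 or KO 2, and with the block without pair 1 or pair 2. Its range therefore leaves out the fit without KO 1. Ccl5 had the fewest estimated fragments, and the cause of these shifts was not tested. The counts of listed genes without KO 1, and the split of the monocyte marker sum, were added after the data were seen.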

Other observations

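Genes that act on chemokine messages and proteins after transcription were measured in the same cells. Of 7 factors that govern the decay of inflammatory transcripts, 4 had differences above 0 (63.4% of all genes) and 3 below, with a median of 0.01. With a common FPKM sum 7 were above 0, with median ratio scaling 2, with quantile normalization 3 and without KO 1 it was 0 of 7. Limma called 0 (0 at an unadjusted p under 0.05, with or without the block). Zfp36l1, which promotes decay of transcripts with AU-rich elements, measured 9.13, 8.78 and 6.36 FPKM across WT 1 to 3 and 23.6, 4.65 and 9.95 across KO 1 to 3. Zc3h12a, an RNase that degrades inflammatory transcripts, measured 14.2, 5.38 and 5.08 across the WT and 17.5, 5.88 and 2.54 across the KO libraries. In both genes replicate 1 held the highest value of each genotype, as it did for Ccl3, Ccl4, Ccl5, Cxcl2 and Cxcl10.

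Of 10 tested genes that cleave, shed or capture chemokines, 5 had differences above 0 (63.4% of all genes) and 5 below, with a median of 0.01. The counts were 8 and 2 with a common FPKM sum, 3 and 7 with median ratio scaling, 6 and 4 with quantile normalization and 7 and 3 without KO 1. Limma called 0 (0 at an unadjusted p under 0.05, and 2 with the block, against 6.93% of all genes). Srgn, which encodes the proteoglycan serglycin of secretory granules, measured 999, 1273 and 696 FPKM across the WT and 829, 826 and 756 across the KO libraries, groups that overlapped. Sdc4, a cell surface heparan sulfate proteoglycan, measured 5.54, 3.39 and 10.5 across the WT and 13.5, 6.55 and 9.85 across the KO libraries, higher in 2 of 3 pairs (0.61; limma, adjusted p = 1.00, and 0.683 with the block).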
